A study of Mus musculus with 26 samples.

Results

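The carboxylesterase genes Ces1b, Ces1c, Ces1d, Ces1e, Ces1f, Ces1g, Ces2a, Ces2e, Ces3a and Ces3b were taken by symbol from a table of read counts in mouse liver, 10 of its 55401 genes. All 10 passed the filter on low counts, as did 16238 genes in all. Liver RNA came from male C57BL/6 mice fed a high-fat diet, also described as high in cholesterol, that began at 4 weeks of age and lasted 18 weeks. Mice that received the diet alone (untreated HFD, 9 libraries) form the control group for mice on the same diet injected through the tail vein with exosomes of UCMSCs every 72 hours over 8 weeks (UCMSC-Exos, 8 libraries, numbered 1 to 3 and 5 to 9). Exosomes are small vesicles that cells release. The labels list no injection for the untreated mice, so the effect of exosomes and that of being injected many times cannot be told apart, nor can a shared cage or cohort. No chow-fed group is among these samples, and the labels do not tie each library to 1 animal, so p-values measure the spread between libraries. In a bulk liver sample, fewer cells of a type and less RNA per cell cannot be told apart.

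Carboxylesterases are serine hydrolases, most of them held in the lumen of the endoplasmic reticulum, that split ester bonds in drugs, in other foreign compounds and in neutral lipids. In hepatocytes some of them release fatty acids from stored triglyceride, and those fatty acids can be used to build very low density lipoprotein (VLDL). The mouse carries many copies of these genes, grouped by sequence into the Ces1, Ces2 and Ces3 subfamilies, where the human genome has few.

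On mm10 all 10 genes lie on chromosome 8, in separate clusters. The 6 Ces1 genes follow each other on the minus strand, from Ces1b (chr8:93056728-93080017) through Ces1c (chr8:93099015-93131283), Ces1d (chr8:93166068-93197838), Ces1e (chr8:93201218-93229619) and Ces1f (chr8:93256236-93279747) to Ces1g (chr8:93302369-93337308). On the plus strand lie Ces2a (chr8:104734003-104741634), Ces2e (chr8:104926260-104934672), Ces3a (chr8:105048601-105058413) and Ces3b (chr8:105083753-105093929).

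The end of the coding sequence shows both what the proteins share and how far apart the copies are, because the last residues of many carboxylesterases form the signal that keeps them in the endoplasmic reticulum. The last 36 coding bases are given 5′ to 3′ from the GENCODE vM21 transcripts, with the stop codon in lower case at the end and the 12 bases before it in capitals.
Ces1b: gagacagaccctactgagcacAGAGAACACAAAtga
Ces1c: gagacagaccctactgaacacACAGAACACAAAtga
Ces1d: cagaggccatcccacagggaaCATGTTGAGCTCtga
Ces1e: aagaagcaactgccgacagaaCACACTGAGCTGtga
Ces1f: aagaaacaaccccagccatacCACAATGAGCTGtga
Ces1g: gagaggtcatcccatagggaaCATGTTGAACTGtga
Ces2a: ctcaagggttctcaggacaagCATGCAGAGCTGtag
Ces2e: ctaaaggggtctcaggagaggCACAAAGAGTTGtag
Ces3a: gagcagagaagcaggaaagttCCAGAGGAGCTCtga
Ces3b: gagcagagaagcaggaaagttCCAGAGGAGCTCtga
The capitals mark the place of the signal and do not show that each gene encodes it. In Ces1b and Ces1c they end in codons for histidine and lysine, in the other genes in codons for glutamate and leucine. Ces3a and Ces3b ended in the same 36 bases. Over the whole coding sequence Ces3a and Ces3b were 95.3% identical, Ces1b and Ces1c 88.8%, and Ces2a and Ces2e 83.2%. The 15 pairs within Ces1 ran from 71.7% to 88.8%, and the 28 pairs between subfamilies from 53.6% to 58.0%. Of all stretches of 100 bases in the transcripts, 9.09% in Ces3a and 7.68% in Ces3b occurred in both genes. The same share was 10.75% for Ces2a, all with the gene model Gm7208, and 1.29% and 1.39% for Ces1b and Ces1c, shared by that pair. Ces1d, Ces1e, Ces1f, Ces1g and Ces2e shared no such stretch with another gene. Reads that mapped to several places were not counted, so levels of Ces3a, Ces3b and Ces2a may be too low. How many reads were lost was not measured, and the share of stretches does not give it. Counting was unstranded, so reads of overlapping antisense transcripts cannot be told apart from those of the genes.

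Upstream sequences of RefSeq (GRCm38.p6) matched 7 of the 10 genes. They are shown for Ces1b (chr8:93080018-93080267, minus strand), Ces1c (chr8:93131284-93131533, minus strand) and Ces3b (chr8:105083505-105083754, plus strand). Ces1b and Ces1c are among the pairs whose levels moved apart below, though not the pair that moved most. Ces3b is the member with the largest fold change. Each runs 5′ to 3′ over the 250 bases before the start site. Capitals mark the run of 58 bases that Ces1b and Ces1c share, and in Ces3b the letters TATAAA.
Ces1b: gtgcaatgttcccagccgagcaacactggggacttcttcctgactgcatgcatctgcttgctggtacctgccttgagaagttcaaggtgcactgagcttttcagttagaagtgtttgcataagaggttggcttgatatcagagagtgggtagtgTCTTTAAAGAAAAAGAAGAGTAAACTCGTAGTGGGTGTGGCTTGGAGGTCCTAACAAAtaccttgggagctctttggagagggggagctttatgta
Ces1c: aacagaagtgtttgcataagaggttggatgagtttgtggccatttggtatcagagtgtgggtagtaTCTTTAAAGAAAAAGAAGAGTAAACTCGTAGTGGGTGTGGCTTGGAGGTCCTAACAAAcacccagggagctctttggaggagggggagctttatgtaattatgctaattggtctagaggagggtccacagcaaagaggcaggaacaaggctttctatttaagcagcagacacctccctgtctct
Ces3b: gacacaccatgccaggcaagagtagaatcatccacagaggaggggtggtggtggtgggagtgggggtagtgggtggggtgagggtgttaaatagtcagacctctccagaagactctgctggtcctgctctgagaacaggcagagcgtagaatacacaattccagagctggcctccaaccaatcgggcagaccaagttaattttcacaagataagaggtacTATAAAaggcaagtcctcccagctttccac
The shared run lay from -96 to -39 before the annotated start of Ces1b and from -184 to -127 before that of Ces1c. The letters TATAAA stood at -30 to -25 in Ces3b and, read on the other strand, at -26 to -21 in Ces1g. On either strand they occur in 12.4% of 32851 RefSeq promoter windows of the same 250 bases, and in 2 of the 7 examined here. The letters CAAAGTCCA (an HNF4 site, in 0.384% of windows), TGTTTAC (FOXA, 3.17%), TTCNNNGAA (STAT5, 7.02%) and TGACNNNGC (antioxidant response element, 10.2%) were not found in these 7 windows on either strand. At such shares few hits are to be expected in 7 windows, so this does not show that the genes lack such sites. A pattern longer than the HNF1 half-site, present in 0.371% of windows, was not found either. The half-site alone was not searched for, so its absence is not shown.

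Per exon length, the genes fell into tiers in untreated liver. This length covers the annotated exons of a gene (3285 bases for Ces1f) and can exceed that of a single transcript, so the tiers depend on it. In RPKM (counts scaled to a library of 1 M reads, CPM, and divided by the exon length in kilobases, mean ± SD, n = 9), Ces1c stood at 578.5 ± 105 and Ces3a at 405 ± 75.6. Ces1d at 155 ± 41.0 and Ces1g at 150 ± 30.5 RPKM were closer to each other than their spread, as were Ces1f at 74.3 ± 15.2 and Ces2e at 69.9 ± 9.43 RPKM. The lowest 4 were Ces3b at 37.4 ± 16.3, Ces2a at 36.7 ± 5.66, Ces1b at 34.5 ± 8.18 and Ces1e at 31.2 ± 4.91 RPKM, which also lay within each other's spread. In UCMSC-Exos (n = 8) Ces3a at 818 ± 199 RPKM headed the order, with Ces1c next at 714 ± 133 RPKM, a gap within their spread. Of the summed RPKM of the 10 genes, Ces1c made up 36.8% ± 4.87 (SD) in untreated HFD and 31.3% ± 2.31 in UCMSC-Exos. The share of Ces3a was 25.7% ± 3.25 and 35.4% ± 3.89, and that of Ces1g 9.52% ± 1.09 and 6.50% ± 0.66.

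**Figure D1:**
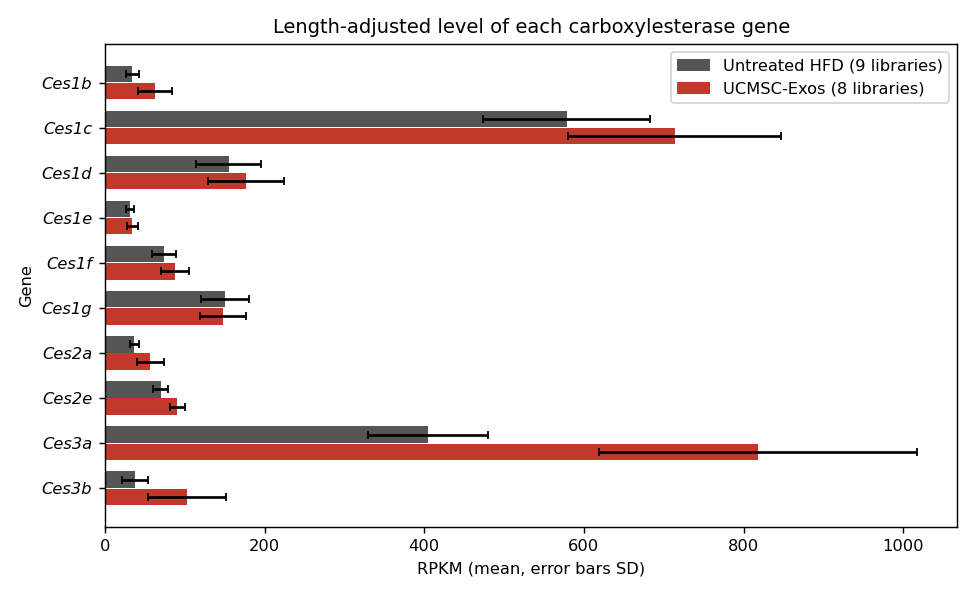
Level per exon length of each carboxylesterase in RPKM (horizontal axis), as bars for the mean with the SD over 9 untreated HFD and 8 UCMSC-Exos libraries. Ces1c (578.5 RPKM) is highest in untreated HFD and Ces3a (818 RPKM) in UCMSC-Exos, while Ces1e, at 31.2 and 34.4 RPKM, is lowest in both.

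UCMSC-Exos 9 stood apart from its group. For 9 of the 10 genes, all but Ces1d, it was the lowest UCMSC-Exos library, and its level divided by the untreated mean was 0.423 for Ces3b, 0.987 for Ces3a and 1.05 for Ces2e. Its 10 hepatocyte markers summed to 57978 CPM, the lowest of its group, whose median was 93687 CPM. Its cholangiocyte and stellate cell markers, at 581 and 1543 CPM, were the highest of its group, whose medians were 71.5 and 363 CPM. The untreated medians of these markers were higher than those of UCMSC-Exos, at 195 and 1033.5 CPM. Of 6 stellate markers 2, Col1a2 (-1.20, adjusted p = 0.0446 by edgeR) and Des (-3.46, 0.0392), passed as lower in UCMSC-Exos. The median log2 fold change over the list was -1.12. Des was very uneven in untreated HFD, at 85.1 ± 224 CPM (SD) against 7.72 ± 3.67 CPM in UCMSC-Exos. With an SD above the mean, its change is not a fall shared evenly by the group. Whether the muscle signal of untreated HFD 9, given below, added to Des was not tested. The 6 cholangiocyte markers had a median of -1.03 with adjusted p of 0.159 to 0.755 by edgeR. Among untreated libraries, number 3 held 10301 CPM of pancreatic acinar markers and number 9 held 7942 CPM of muscle markers, where no UCMSC-Exos library exceeded 17.9 and 2.29 CPM. Total counts ran from 32.9 to 36.1 M reads.

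Ces1b, Ces2a, Ces2e, Ces3a and Ces3b rose in UCMSC-Exos by edgeR's quasi-likelihood test at an adjusted p under 0.05, a direction that turned for Ces2e when libraries were scaled to hepatocyte markers. The other 5 genes did not pass. Of all tested genes 20.2% passed, 9.73% higher and 10.4% lower. The median log2 fold change was 0.34 over the 10 genes and -0.02 over all genes tested. Together the 10 genes took 0.407% ± 0.044 (SD, n = 9) of all counts in untreated HFD and 0.529% ± 0.066 (SD, n = 8) in UCMSC-Exos. In CPM, which use the TMM-scaled library size, their sums ran from 3085 to 4786 and from 3236 to 6741. The summed Ces3 level was 1159 ± 227 (SD, n = 9) and 2412 ± 646 CPM (SD, n = 8), that of Ces2 was 275 ± 34.6 and 380 ± 59.2 CPM, and that of Ces1 was 2450 ± 370 and 2919 ± 530 CPM.

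**Figure D2:**
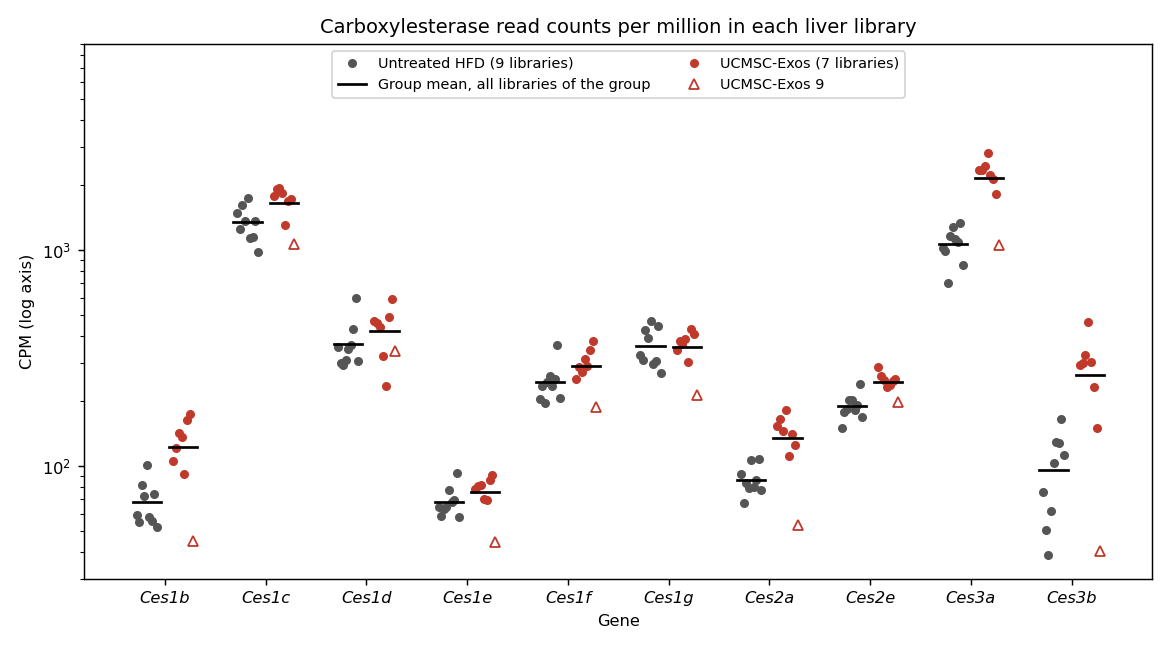
CPM of each gene (log axis) in every library, untreated HFD beside UCMSC-Exos, with a black line at the group mean and an open triangle for UCMSC-Exos 9. For Ces3a the other 7 UCMSC-Exos libraries lie above the highest untreated library (1341 CPM), and UCMSC-Exos 9 (1049.5 CPM) lies among the untreated ones.

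The Ces3 genes encode liver esterases of the endoplasmic reticulum. Ces3a ran from 704 through a median of 1092 to 1341 CPM in untreated HFD, and from 1049.5 through 2283 to 2799 CPM in UCMSC-Exos. Apart from UCMSC-Exos 9, every library of that group was above every untreated one. The mean went from 1063 ± 199 (SD, n = 9) to 2149 ± 523 CPM (SD, n = 8), a log2 fold change of 1.01 ± 0.16 (SE) with an adjusted p of 0.000413 by edgeR's quasi-likelihood test. Ces3b ran from 38.6 through 104 to 164 CPM in untreated HFD and from 40.5 through 297 to 463 CPM in UCMSC-Exos. For Ces3b 6 of 8 UCMSC-Exos libraries exceeded the highest untreated one, and UCMSC-Exos 9 was close to the lowest untreated one. Its mean went from 95.9 ± 41.9 to 263 ± 126 CPM, a log2 fold change of 1.46 ± 0.37 (SE) with an adjusted p of 0.0130 by edgeR. Ces3b was also the most variable of the 10 among untreated libraries, with a coefficient of variation of 43.7%. The log2 ratio of Ces3b to Ces3a was -3.59 ± 0.56 (SD) and -3.23 ± 0.66, a difference of 0.35 that did not pass (exact permutation p = 0.249, adjusted p = 0.371 over 17 pairs).

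Ces2 enzymes take substrates with a small acyl group and a large alcohol group, and the human member of this subfamily activates the prodrug irinotecan. Ces2a ran from 67.1 through a median of 83.4 to 107 CPM in untreated HFD and from 53.4 through 143 to 181 CPM in UCMSC-Exos. In 7 of 8 UCMSC-Exos libraries it was above the untreated maximum, and in UCMSC-Exos 9 it was below the untreated minimum. Its log2 fold change was 0.63 ± 0.17 (SE), with an adjusted p of 0.0156 by edgeR. Ces2e ran from 149 through 184 to 240 CPM and from 198 through 248 to 286 CPM. The groups overlapped, but all 8 UCMSC-Exos libraries, number 9 included, exceeded the untreated median. Its mean went from 189 ± 25.5 to 246 ± 25.4 CPM, a log2 fold change of 0.38 ± 0.09 (SE) with an adjusted p of 0.00627 by edgeR. The log2 ratio of Ces2e to Ces2a was 1.13 ± 0.21 (SD) and 0.94 ± 0.45, a difference that did not pass (exact permutation p = 0.283, adjusted p = 0.371).

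Ces1b was the Ces1 gene that rose. It ran from 51.9 through a median of 59.1 to 101 CPM in untreated HFD and from 44.8 through 129 to 175 CPM in UCMSC-Exos, where 6 of 8 libraries exceeded the untreated maximum. UCMSC-Exos 9 was below the lowest untreated library. The mean went from 67.7 ± 16.1 to 122 ± 41.7 CPM, a log2 fold change of 0.85 ± 0.21 (SE) with an adjusted p of 0.00905 by edgeR's quasi-likelihood test.

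The other Ces1 genes had overlapping groups. Ces1c, the carboxylesterase that mouse liver secretes into plasma, ran from 979 through a median of 1364 to 1737 CPM in untreated HFD and from 1063 through 1754 to 1943 CPM in UCMSC-Exos. Its log2 fold change of 0.30 ± 0.13 (SE) did not pass (adjusted p = 0.113 by edgeR), and 4 of 8 libraries were above the untreated maximum. Ces1d, the triacylglycerol hydrolase that mobilises stored triglyceride for VLDL, ran from 292 to 598 CPM and from 235 to 596 CPM, so that the untreated range held all UCMSC-Exos libraries but the lowest. Its log2 fold change was 0.19 ± 0.17 (SE), with an adjusted p of 0.440 by edgeR. Ces1f, another triglyceride hydrolase of the liver, had a log2 fold change of 0.25 ± 0.13 (SE, adjusted p = 0.175 by edgeR), from 244 ± 50.0 to 290.5 ± 57.5 CPM.

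Ces1e, known as egasyn, holds beta-glucuronidase in the endoplasmic reticulum. It went from 68.4 ± 10.7 to 75.4 ± 14.4 CPM, a log2 fold change of 0.14 ± 0.12 (SE) that did not pass (adjusted p = 0.413 by edgeR). Gusb, the gene of beta-glucuronidase and picked out here after its values were seen, fell from 75.2 ± 9.20 to 57.8 ± 11.3 CPM, with an adjusted p of 0.0156 by edgeR. Ces1g, an esterase linked to hepatic lipid synthesis and secretion, stood at 359 ± 72.9 and 354 ± 68.8 CPM, a log2 fold change of -0.02 ± 0.14 (SE, adjusted p = 0.928 by edgeR). No UCMSC-Exos library exceeded the untreated maximum of Ces1d, Ces1e or Ces1g. A p that misses the threshold does not show that these levels were equal.

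Within Ces1, levels relative to Ces1b shifted for 4 of the 5 other copies. Ratios between genes of the same library do not depend on how libraries are scaled, and they were compared for 17 pairs within subfamilies by two-sided exact permutation tests over the 24310 ways to assign the libraries, where the smallest possible p is 4.11e-05. The log2 ratio of Ces1g to Ces1b was 2.41 ± 0.10 (SD, n = 9) in untreated HFD and 1.60 ± 0.31 (SD, n = 8) in UCMSC-Exos, a difference of -0.81 (exact permutation p = 8.23e-05, adjusted p = 0.0014). All 8 UCMSC-Exos libraries, number 9 among them, lay below the untreated median of this ratio. The ratios of Ces1e, Ces1f and Ces1c to Ces1b were also lower, by differences of -0.66, -0.54 and -0.49 (exact permutation, adjusted p = 0.00583, 0.0340 and 0.0166), with 8, 7 and 7 of 8 libraries below the untreated median. The Ces1f ratio passed in only 8 of the 17 fits that left out a library, with an adjusted p of up to 0.0695. Ces1g was also lower relative to Ces1c, by a difference of -0.32 (adjusted p = 0.00583, exact permutation), in 8 of 8 libraries. The ratio of Ces1d to Ces1b, with a difference of -0.61 (adjusted p = 0.0636, exact permutation), and the other pairs did not pass.

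**Figure D3:**
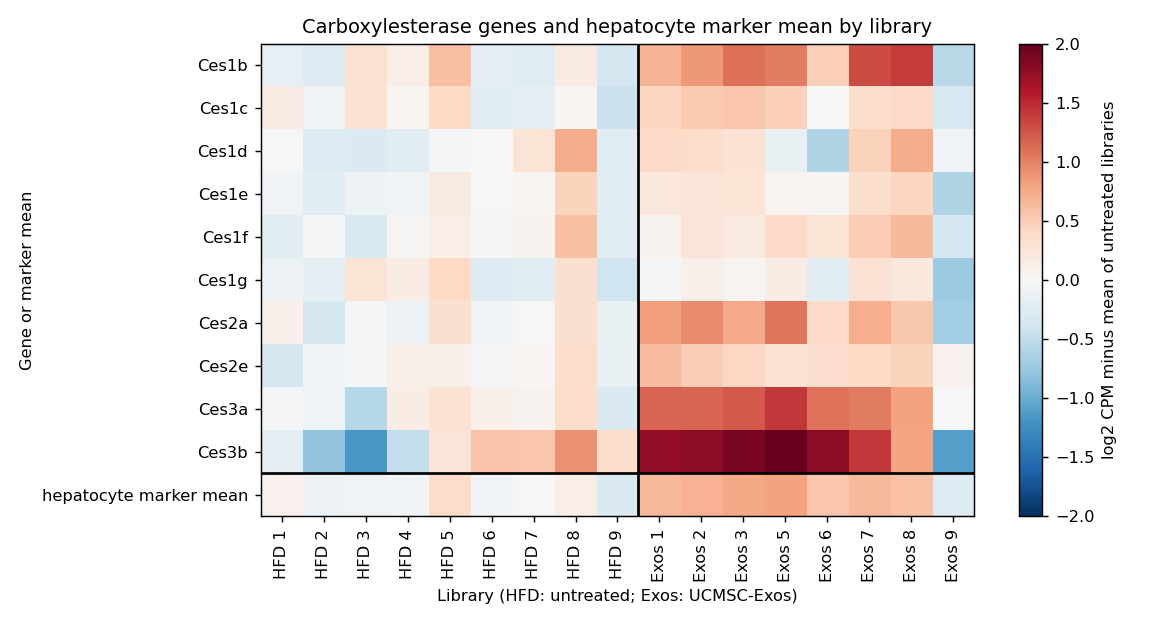
Heat map of log2 CPM minus the untreated mean for the 10 genes and for the mean of 10 hepatocyte markers (rows) in 17 libraries (columns). In UCMSC-Exos 9 Ces1g (-0.72) and Ces2a (-0.68) are below the untreated mean, Ces3a (0.01) is close to it, and the hepatocyte marker mean is -0.25.

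Without UCMSC-Exos 9, Ces1c (adjusted p = 0.018 by edgeR) and Ces1f (0.036) passed as well, 7 of the 10 genes in all, beside 15% of genes tested that were then higher. Over the remaining 7 libraries the mean was 2306 ± 298 CPM (SD) for Ces3a, 295 ± 95.1 for Ces3b, 146 ± 23.4 for Ces2a, 252 ± 17.9 for Ces2e and 133 ± 29.7 for Ces1b. Leaving out untreated libraries 3 and 9, the same number of genes passed as with all libraries (5), beside 10.9% of genes higher. Without those and UCMSC-Exos 9 together 6 passed, with Ces1c added, beside 19.6%. With 3 surrogate variables, hidden factors estimated from the data, as terms in the fit, Ces3a passed higher (0.45, adjusted p = 0.00232 by edgeR) and Ces1g lower (-0.36, 0.0399). In that fit Ces1b (0.28, adjusted p = 0.490), Ces2a (0.05, 0.898), Ces2e (0.21, 0.168) and Ces3b (0.17, 0.887) did not pass, beside 5.95% of all genes that did. Each of the 5 genes that rose passed in 17 of 17 fits that left out a library in turn, with adjusted p by edgeR up to 0.0371 (Ces2a).

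Hepatocyte markers moved in the same direction as the carboxylesterases that rose, though not every member followed them. Of 10 such markers (Alb, Apoa1, Apob, Ttr, Trf, Serpina1c, Fgb, Tat, Cps1 and Asgr1) 8 rose, with a median log2 fold change of 0.53, and their summed level ran from 50969 to 92913 CPM in untreated HFD and from 57978 to 99785 CPM in UCMSC-Exos. Their mean log2 level relative to untreated HFD was -0.25 in UCMSC-Exos 9 and 0.56 to 0.81 in the other 7. When libraries were scaled to these markers, an alternative added after the data were seen, the median log2 fold change of all genes went from -0.02 to -0.55, and 1.34% of genes passed higher and 65.7% lower. On that scale Ces3a at 0.42 ± 0.10 (SE, adjusted p = 0.0034 by edgeR) and Ces3b at 0.80 ± 0.31 (adjusted p = 0.0306) were still higher. Ces1b at 0.26 ± 0.14 (adjusted p = 0.116 by edgeR), Ces2a at 0.03 ± 0.10 (0.825) and Ces2e at -0.17 ± 0.11 (0.190) did not pass. Ces1c at -0.26, Ces1e at -0.43, Ces1f at -0.31 and Ces1g at -0.59 were lower (adjusted p = 0.0175, 0.00384, 0.0269 and 0.000566 by edgeR), where all 4 had been uncalled. The cholangiocyte and stellate markers given above had the lower group median in UCMSC-Exos. The part of these cell types in the changes was not tested.

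**Figure D4:**
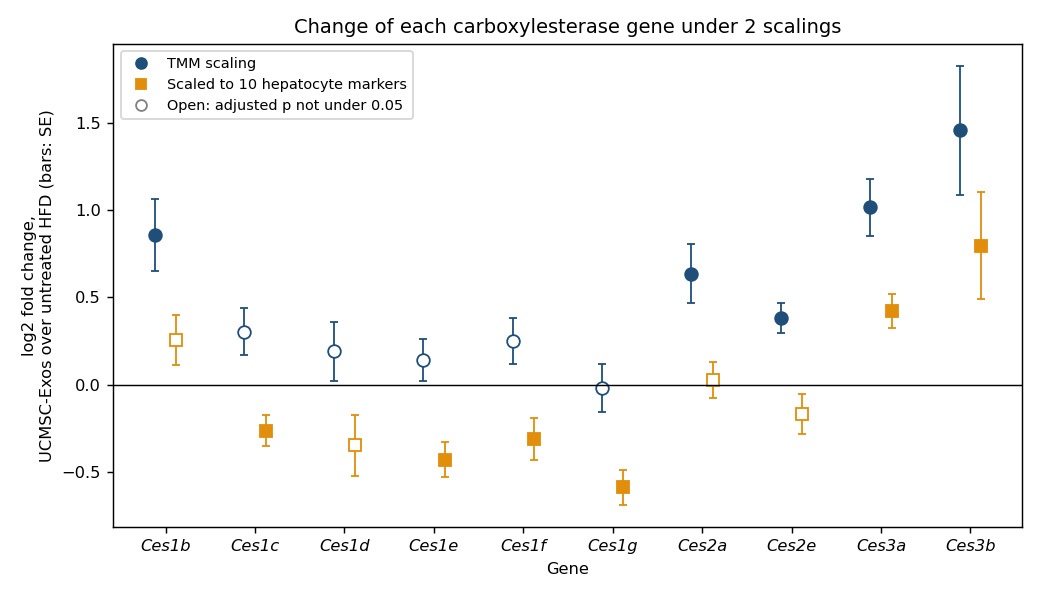
Log2 fold change with its SE, UCMSC-Exos against untreated HFD, for each gene with TMM scaling (circles) and scaled to 10 hepatocyte markers (squares), where open symbols have an adjusted p not under 0.05. Ces3a and Ces3b are higher on both scales (1.01 and 0.42, 1.46 and 0.80), while Ces2e turns from 0.38 to -0.17.

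Other carboxylesterase genes were mostly low. Of 10 listed, 6 were tested and 2 rose, with a median log2 fold change of 0.35. These 2, Ces4a and Ces2b, passed the filter on low counts through their UCMSC-Exos libraries, so the count depends on the filter. With a minimum of 1 CPM in 8 samples, 4 were tested and 1 passed. Ces1h, at a mean of 0.419 CPM in untreated HFD and 0.145 CPM in UCMSC-Exos, was not tested. Ces4a went from 0.463 ± 0.359 to 2.77 ± 1.38 CPM, a log2 fold change of 2.56 ± 0.45 (SE, adjusted p = 0.00100 by edgeR). Ces2b went from 0.423 ± 0.318 to 2.36 ± 0.810 CPM, a log2 fold change of 2.46 ± 0.45 (SE, adjusted p = 0.00118 by edgeR), and in all 8 UCMSC-Exos libraries exceeded the untreated maximum. In UCMSC-Exos 9 Ces4a was at 0.400 CPM, below the untreated mean. With surrogate variables Ces4a did not pass (1.36, adjusted p = 0.173 by edgeR), and Ces2b did (2.33, 0.0115). Both were far below the 10 genes above in CPM. Ces2c (0.37, adjusted p = 0.230), Ces2g (0.21, adjusted p = 0.0652), Ces1a (0.33, adjusted p = 0.562) and Ces2h (-0.49, adjusted p = 0.181, all by edgeR) did not pass.

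Genes that share the substrates of these enzymes were read from lists, to be set beside the 9.73% of all genes that were higher and the 10.4% that were lower. Of 14 tested hydrolases of neutral lipids 3 rose and 1 fell, with a median log2 fold change of 0.07. Aadac, a deacetylase of the endoplasmic reticulum, rose by 0.54 ± 0.10 (SE, adjusted p = 0.00133 by edgeR), Lipc, hepatic lipase, by 0.62 ± 0.13 (0.00455), and Pnpla3, a lipid droplet protein, fell by 1.55 on the log2 scale (0.0113). Of 15 genes of VLDL assembly 3 rose, with a median of 0.20, a share of genes passing close to the 20.2% of all genes. They were Mia3, an export receptor for large cargo, at 0.39 ± 0.08 (adjusted p = 0.00456 by edgeR), Surf4, a cargo receptor, at 0.22 ± 0.08 (0.0429), and Apob, the structural protein of VLDL, at 0.36 ± 0.12 (0.0448). Surf4 and Apob each passed in only 5 of 17 fits that left out a library, with adjusted p up to 0.0915 and 0.0985. Of 14 xenobiotic hydrolases and oxidases, a list that holds Aadac too, 6 rose, Aadac included, and 1 fell, Gusb, with a median of 0.17. Among those that rose was Ephx2, soluble epoxide hydrolase, at 0.51 ± 0.10 (adjusted p = 0.00235 by edgeR).

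Of 20 listed regulators of hepatocyte genes 7 rose, with a median log2 fold change of 0.19. Hnf4a, a nuclear receptor that maintains hepatocyte identity, rose by 0.67 ± 0.13 (SE, adjusted p = 0.0023 by edgeR). The forkhead factors Foxa1 and Foxa3, which open liver chromatin, rose by 0.50 ± 0.12 (adjusted p = 0.00707 by edgeR) and 0.96 ± 0.23 (0.00837), Foxa1 turning to -0.038 when scaled to hepatocyte markers. Of 14 targets of the drug-sensing receptors CAR and PXR 3 rose and 2 fell, with a median of -0.12. Gstm3, a glutathione transferase, fell by 1.14 on the log2 scale (adjusted p = 0.000349 by edgeR), and Cyp3a13 rose by 0.57 ± 0.15 (0.0156). Cyp3a11, named after its values were seen, was the other that fell (-0.69, adjusted p = 0.0355 by edgeR). Its mean went from 1749 to 1087 CPM. Relative to hepatocyte markers, Mia3, Surf4, Aadac, Ephx2, Foxa1 and Cyp3a13 turned from positive to negative values. Apob is itself 1 of the 10 markers, so its value on that scale is set in part by the scaling.

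With surrogate variables most calls in these lists were lost. The neutral lipid hydrolases and hepatocyte regulators named above did not pass by edgeR, with adjusted p of 0.0556 for Aadac, 0.118 for Lipc, 0.0806 for Pnpla3, 0.116 for Hnf4a, 0.112 for Foxa1 and 0.421 for Foxa3. Mia3 (adjusted p = 0.0995 by edgeR), Surf4 (0.387), Apob (0.448), Ephx2 (0.0612) and Cyp3a13 (0.773) did not pass either. The genes of these lists that did pass in that fit were lower: Gstm3 (-1.11, adjusted p = 0.0178 by edgeR) and, named after their values were seen, Tm6sf2 (-0.64, 0.00232) among VLDL genes and Esd (-0.23, 0.0339) among xenobiotic hydrolases.

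The genes whose level across the 17 libraries lay nearest to Ces3b, by root mean square difference of centred log2 CPM, were Upp2 (0.347), Mup3 (0.372) and Cyp2f2 (0.374), against a median of 1.11 over 13749 candidates. For Ces3a they were Aadat (0.111), Hsd17b2 (0.113) and C8a (0.113), against a median of 0.653. For Ces1b they were Tdo2 (0.193), Ugt2b36 (0.232) and Fetub (0.238), against a median of 0.653. These libraries share their group and hepatocyte marker levels, so the likeness is a description.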

How the data were processed

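The tools named are featureCounts, Subread 2.0.2, HISAT2 2.2.1 and fastp 1.3.3, with the build mm10, per the submitters' processing notes. Per the file headers, the deposited values are raw counts of reads per gene, made with featureCounts 2.1.1 over GENCODE vM25 exons in paired mode, unstranded and without multi-mapping reads. Both mates of a pair were counted, and the authors did not normalize the counts. Gene length is the exon length in the deposited table.

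The table was matched to 9 untreated HFD and 8 UCMSC-Exos libraries by the names in the labels, and 1 per-sample column without a sample was not used. The 9 LSCR samples of the 26 in the series were not analysed here. The labels name no batch.

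Counts were fitted in R 4.3.3 with edgeR 4.0.16 (filterByExpr with a minimum count of 10, TMM, robust quasi-likelihood F test, Benjamini-Hochberg adjustment over 16238 genes, threshold 0.05). CPM and RPKM use the effective library size, and log2 CPM a prior count of 2. The biological coefficient of variation was 0.29. Ratios between genes were compared by exact permutation. Sequences were aligned with Biopython 1.88.

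The genes and lists were chosen with earlier results of these data known. Named were the 10 genes, all other tested carboxylesterases, up to 3 passing members of smallest p in each list, and the 3 nearest genes of the 3 members with the largest change. Other settings tried were RLE scaling, upper quartile scaling, a fit without the filter, a filter of 1 CPM in at least 8 samples, a replicate block, surrogate variables (sva 3.50.0), DESeq2 1.42.0, limma 3.58.1 voom with quality weights, and leaving out libraries. The steps were tested on simulated counts of 16002 genes for this comparison. At log2 changes of 0.5, 1 and 2 they recovered 43.3%, 83.6% and 98.5% of 67, 67 and 66 changed genes, and 6 of 156 calls were false. The closest 2 libraries, UCMSC-Exos 2 and 3, differed by 4.06 times the sampling noise of independent reads.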

Additional observations from a re-analysis of the deposited data

Results flagged for a closer look

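In 6 of the 20 combinations of gene and group, 1 library lay farther from the rest than Dixon's 95% limit allows, where chance gives about 1 in 20. The genes were measured in the same libraries, so the 20 combinations are not independent and 1 unusual library can be flagged many times. In 5 of the 6 it was UCMSC-Exos 9, on the low side. Its log2 CPM was 5.487 for Ces1b (44.8 CPM, the next library 92.0), 5.4809 for Ces1e (44.6 CPM, next 69.2) and 5.7408 for Ces2a (53.4 CPM, next 111). It was 10.036 for Ces3a (1049.5 CPM, next 1824) and 5.3431 for Ces3b (40.5 CPM, next 150). The remaining case was untreated HFD 8, which was high in Ces1f at a log2 CPM of 8.502 (362 CPM, next 262).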

How the results depend on the processing

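Of the 10 carboxylesterases 5 passed and of all genes 3274. With RLE or upper quartile scaling, no filter (2279 genes in all), a minimum of 1 CPM in 8 samples and DESeq2, 5 of the 10 passed as well. Surrogate variables left 2 of the 10 and 966 genes, voom with quality weights gave 8 and 7711, and leaving out each library gave 5 to 7 and 2005 to 5823, the highest without UCMSC-Exos 9 and the lowest without UCMSC-Exos 3. Without untreated HFD 3 and 9 and UCMSC-Exos 9 together 6716 genes passed, and with hepatocyte scaling, added after the data were seen, 10886. Signs turned with surrogate variables for Ces1e (-0.19) and Ces1f (-0.093), with voom for Ces1g (0.11), and without the 3 libraries for Ces1g (0.041) and for the ratio of Ces1e to Ces1d (0.046). Leaving out each library, Ces1g ran from -0.067 to 0.057. The difference in the ratio of Ces1f to Ces1c ran from -0.125 to 0.019, of Ces1f to Ces1d from -0.044 to 0.127 and of Ces1e to Ces1d from -0.148 to 0.019. With hepatocyte scaling the log2 fold change turned to -0.26 (Ces1c), -0.35 (Ces1d), -0.43 (Ces1e), -0.31 (Ces1f), -0.17 (Ces2e), -0.23 (Ces1a), -0.23 (Ces2c), -0.31 (Ces2g), -0.041 (Aadac), -0.16 (Mia3), -0.32 (Surf4), -0.18 (Apob, itself a marker), -0.064 (Ephx2), -0.079 (Fmo5), -0.038 (Foxa1), -0.018 (Cyp3a13) and -0.17 (Abcc2). The cause was not tested. With the replicate number as a block 5 of the 10 and 3027 genes passed, Ces3b (1.34, adjusted p = 0.0962 by edgeR) being lost and Ces1c (0.30, 0.0390) gained. Same-numbered libraries correlated at -0.17 to 0.24, with 2 of 8 pairs over 0.1, so the numbers were not taken as a pairing. Depth was not limiting for the 10 genes, whose lowest count in any library was 1332 reads.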
